A study of Mus musculus with 6 samples.

Results

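The mouse immunoglobulin λ light chain genes Iglv1, Iglv2, Iglv3, Iglc1, Iglc2 and Iglc3 were examined in pre-B cells. They were chosen by name as 6 of the 37310 genes of GENCODE M1, and the locus was taken from the first to the last of them with 50 kb on each side, chr16:19011851-19310937 of NCBIM37 (mm9), a length of 299 kb. GENCODE M1 annotates 5 of the 6 on the minus strand, namely Iglv1 (ENSMUSG00000076934.1), Iglv2 (ENSMUSG00000076940.2), Iglv3 (ENSMUSG00000076939.1), Iglc2 (ENSMUSG00000076937.2) and Iglc3 (ENSMUSG00000076931.2). Iglc1 was placed by its similarity to Iglc3, with 75.6% identity over 316 aligned bases, and by the order of genes in the RefSeq table.

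Chromatin immunoprecipitation followed by sequencing (ChIP-seq) was performed for H3K27ac, H3K4me3 and Pax5 on pre-B cells from bone marrow of C57BL/6 RAG-/- µ+ mice of 6 to 14 wk, males and females. These mice lack the recombinase and bear a rearranged IgM transgene, so the λ genes of all the cells are in germline order. There was 1 library for each of the 3 profiles, and therefore no value below has a replicate check and none was tested. The 3 input libraries were not analysed here, the peak lists hold no read counts, and the depth is unknown.

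A light chain gene is assembled by joining a V gene, which encodes most of the variable domain, to a J segment upstream of a C gene, which encodes the constant domain. The joining is directed by recombination signal sequences (RSS), in which a heptamer and a nonamer are separated by a spacer. The mouse λ locus holds very few V genes and arose by duplication, and each copy has a pair of J-C clusters downstream of its V genes, followed by an enhancer. The enhancer Eλ2-4 lies downstream of Iglc4 and Eλ3-1 downstream of Iglc1, and both are known for a composite element to which PU.1 and IRF4 bind together. Most mouse B cells use κ in place of λ. H3K27ac marks active enhancers and promoters, H3K4me3 marks active promoters, and Pax5 is the transcription factor that maintains the identity of B cells.

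In the direction of transcription the order was Iglv2, Iglv3, Iglj2-Iglc2, Iglj4-Iglc4, Iglv1, Iglj3-Iglc3 and Iglj1-Iglc1. Iglv2 (chr16:19260494-19260937), Iglv3 (chr16:19241304-19241772) and Iglv1 (chr16:19085110-19085553) are annotated from the start codon. Iglc2 (chr16:19198494-19198945), Iglc3 (chr16:19065327-19065774) and Iglc1 (chr16:19061851-19062162) are constant exons. Iglc2 and Iglc3 are annotated with a first exon that ends in the J segment, and the annotated transcript starts at positions 19200444 and 19067266 served as their starts. The 5′ end of the placed exon served for Iglc1. Iglv1 lies 17.9 kb from Iglj3, Iglv3 lies 41.0 kb from Iglj2, and 110 kb separate Iglc4 from Iglv1. Iglj1, Iglj4 and Iglc4 were also placed by sequence, and the J4-C4 pair is known as a pseudogene.

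The promoters of the V genes are shown because the peaks at the V genes are described against them. Each holds the octamer ATTTGCAT, the site of Oct factors in immunoglobulin promoters, which is in capitals in the 78 bases printed on the coding strand. They lie at chr16:19261005-19261082 for Iglv2, chr16:19241832-19241909 for Iglv3 and chr16:19085621-19085698 for Iglv1, read from the NCBIM37 genome.
Iglv2: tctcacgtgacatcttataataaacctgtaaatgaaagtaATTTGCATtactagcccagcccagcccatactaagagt
Iglv3: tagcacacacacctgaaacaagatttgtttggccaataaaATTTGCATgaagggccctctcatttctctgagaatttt
Iglv1: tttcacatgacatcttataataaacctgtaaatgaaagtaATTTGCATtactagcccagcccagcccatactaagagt
The octamer began 105 bases before the start codon in Iglv1 and Iglv2 and 97 bases before it in Iglv3. In the 250 bases before the start codon Iglv1 and Iglv2 had 240 identical bases, or 96.0%, while Iglv3 had 57 in common with Iglv1 without gaps. From 250 bases before to 50 bases after the gene start, the octamer was found on either strand at 3 of the 3 Vλ genes, at 143 of 205 Vκ and VH genes (69.8%) and at 385 of 22357 protein-coding genes (1.72%).

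The recombination signals are shown because they are the places where Vλ and Jλ segments are cut. The heptamer and the nonamer are in capitals, on the coding strand, and the consensus used for the V genes was CACAGTG and ACAAAAACC with a spacer of 23 bases. The V signals lie at chr16:19260455-19260493, chr16:19241261-19241299 and chr16:19085071-19085109.
Iglv2: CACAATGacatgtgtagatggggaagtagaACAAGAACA
Iglv3: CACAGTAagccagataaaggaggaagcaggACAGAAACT
Iglv1: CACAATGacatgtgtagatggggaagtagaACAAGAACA
Iglv1 and Iglv2 carried the same 39 bases. Each of the 3 V signals matched 6 of 7 heptamer bases and 7 of 9 nonamer bases, and that of Iglv3 began 4 bases past the annotated exon. The J signals run in the opposite order with a spacer of 12 bases, and are given for Iglj4, Iglj3 and Iglj1, at chr16:19196628-19196655, chr16:19067172-19067199 and chr16:19063356-19063383.
Iglj4: GTTTTTTGCattagactatatCAGTGTT
Iglj3: GGTTTAGGGttgggtttcagtCACTGTG
Iglj1: GTTTTTTGCatgagtctatatCACAGTG
The heptamer of Iglj3 matched 7 of 7 bases of the reversed consensus, that of Iglj1 matched 6, and that of Iglj4 matched 5. The best match at Iglj4 ran 2 bases into the J segment.

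The composite element is shown because it served as the landmark for the enhancers, which have no coordinates in the annotation used here. The motif searched, on both strands, was GGAA followed by any 2 bases and GAAA. The first landmark was the match within the Pax5 peak of highest score in the locus. For the second, only matches on the same strand within H3K27ac peaks in the 50 kb downstream of Iglc1 were considered. Of these the match with the most similar surroundings was taken. The Pax5 peak over the first and the H3K27ac peak over the second are therefore given by the choice. The 300 bases lie at chr16:19179360-19179659 and chr16:19027236-19027535 and are printed from the minus strand with the motif in capitals.
Downstream of Iglc4: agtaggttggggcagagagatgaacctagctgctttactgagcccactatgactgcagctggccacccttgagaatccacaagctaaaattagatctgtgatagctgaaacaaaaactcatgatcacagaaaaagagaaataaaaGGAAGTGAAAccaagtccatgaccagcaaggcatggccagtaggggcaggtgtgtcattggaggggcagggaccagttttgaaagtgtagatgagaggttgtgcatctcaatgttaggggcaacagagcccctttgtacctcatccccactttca
Downstream of Iglc1: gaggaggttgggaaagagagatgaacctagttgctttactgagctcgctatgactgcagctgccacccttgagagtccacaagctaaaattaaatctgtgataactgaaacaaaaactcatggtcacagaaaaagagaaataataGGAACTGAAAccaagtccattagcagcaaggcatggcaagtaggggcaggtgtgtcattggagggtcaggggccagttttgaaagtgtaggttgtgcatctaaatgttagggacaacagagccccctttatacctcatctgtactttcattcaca
The first lay 15.6 kb downstream of Iglc4 and the second 34.5 kb downstream of Iglc1. The 2 copies had 269 of 300 aligned positions in common (89.7%). Whether they are Eλ2-4 and Eλ3-1 was not tested. The motif occurred 55 times in the locus, of which 2 were in H3K27ac peaks and 1 in a Pax5 peak.

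The pre-B identity of the cells was checked at marker genes. Of 7 pre-B genes, among them Cd79a and Vpreb1, 7 had an H3K27ac peak and 7 a Pax5 peak within 1000 bp of a transcript start, and 6 had an H3K4me3 region, the exception being Igll1. Of 10 genes of other cell types, 0 had a Pax5 peak, 4 had H3K27ac and 3 had H3K4me3. These were the myeloid genes Itgam, Csf1r and Lyz2 with both marks and the globin gene Hbb-b1 with H3K27ac, while the T cell genes Cd3e, Cd4 and Cd8a, the erythroid and megakaryocyte genes Gata1 and Pf4 and the hepatocyte gene Alb had none. The part of such cells in the λ peaks was not tested.

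The λ locus held 36 peaks of H3K27ac out of 69345, 8 regions of H3K4me3 out of 23237 and 12 peaks of Pax5 out of 15445. They covered 24.1 kb (8.06%), 7.58 kb (2.53%) and 9.08 kb (3.04%) of it. Of 8011 other windows of the same length on the autosomes, 5.62% had at least as many H3K27ac peaks, 12% at least as many H3K4me3 regions and 1.41% at least as many Pax5 peaks. At least as much was covered by H3K27ac in 6.62% of the windows, by H3K4me3 in 8.59% and by Pax5 in 4.42%. Peak scores, which are the peak caller's own and on a scale the lists do not name, had a median in the locus of 8.55 for H3K27ac and 188 for Pax5, beside 8.52 and 207 in the whole lists. Of the 12 Pax5 peaks 5 were above the median of the list, and of the 36 H3K27ac peaks 18 were. In 6 of the 12 Pax5 peaks only 13.3% to 67.3% of the 36-base words were at up to 3 places in the genome. The windows were not screened for such repeated sequence.

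**Figure D1:**
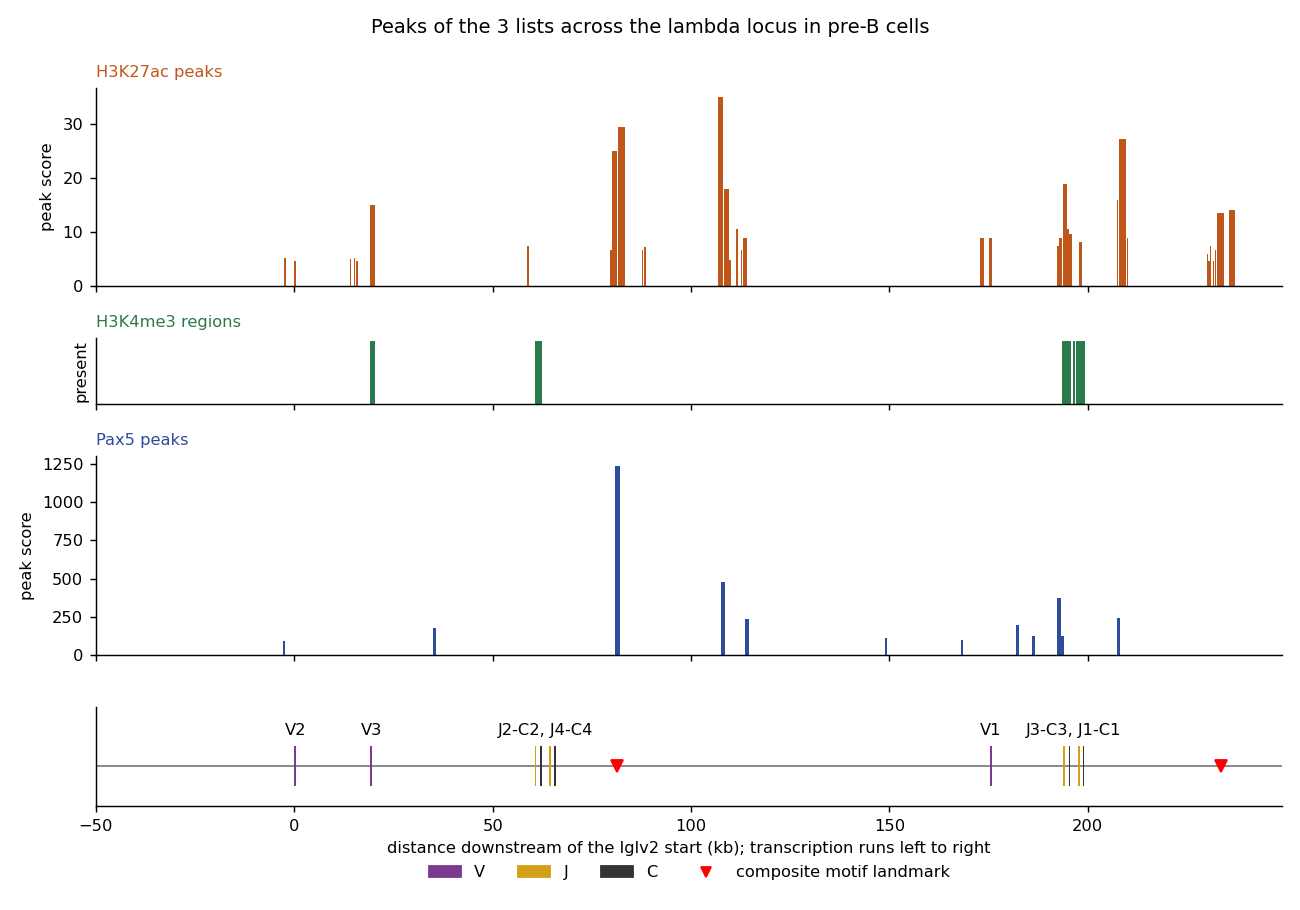
Peaks across the λ locus from 5′ to 3′, with the distance downstream of the Iglv2 start in kb on the x axis, the peak score on the y axis for H3K27ac and Pax5 (1 library each) and the presence of H3K4me3 regions, above the V, J and C segments and the 2 composite motifs (red). The H3K27ac peaks stand in groups away from the genes as well as at Iglv3 and J3-C3, and the H3K4me3 regions lie at Iglv3, J2-C2, J3-C3 and J1-C1. The first composite motif was chosen within the Pax5 peak with a score of 1240.0, and the second within an H3K27ac peak.

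Most H3K27ac and Pax5 peaks lay off the segments, while most H3K4me3 regions lay on them. The segments are 38 to 469 bp long in a locus of 299 kb, and the counts were not compared with their share of it. A V, J or C segment was overlapped by 5 of 36 H3K27ac peaks, by 5 of 8 H3K4me3 regions and by 1 of 12 Pax5 peaks, that over Iglj3. The interval from Iglc4 to Iglv1, which is 110 kb of the 299 kb, held 12 of the 36 H3K27ac and 5 of the 12 Pax5 peaks. The 50 kb downstream of Iglc1 held 10 and 1. Neither interval had an H3K4me3 region. The interval from Iglv3 to Iglj2, where no enhancer is known, had 1 peak of each list. The H3K27ac peak lay 1.42 kb upstream of Iglj2 with a score of 7.40, the Pax5 peak (chr16:19225182-19226013) had a score of 178, and the H3K4me3 region was on the 3′ side of Iglv3.

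At the gene starts, 5 of the 6 members had an H3K27ac peak within 1000 bp, 4 an H3K4me3 region and 1 a Pax5 peak. The shares of protein-coding genes with such a peak were 46.2%, 50.6% and 35.8% of 22357. Of the 205 genes in the Vκ and VH arrays, 36.6% had an H3K27ac peak, 6.83% an H3K4me3 region and 7.32% a Pax5 peak. The members are too few for the shares to be compared.

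**Figure D2:**
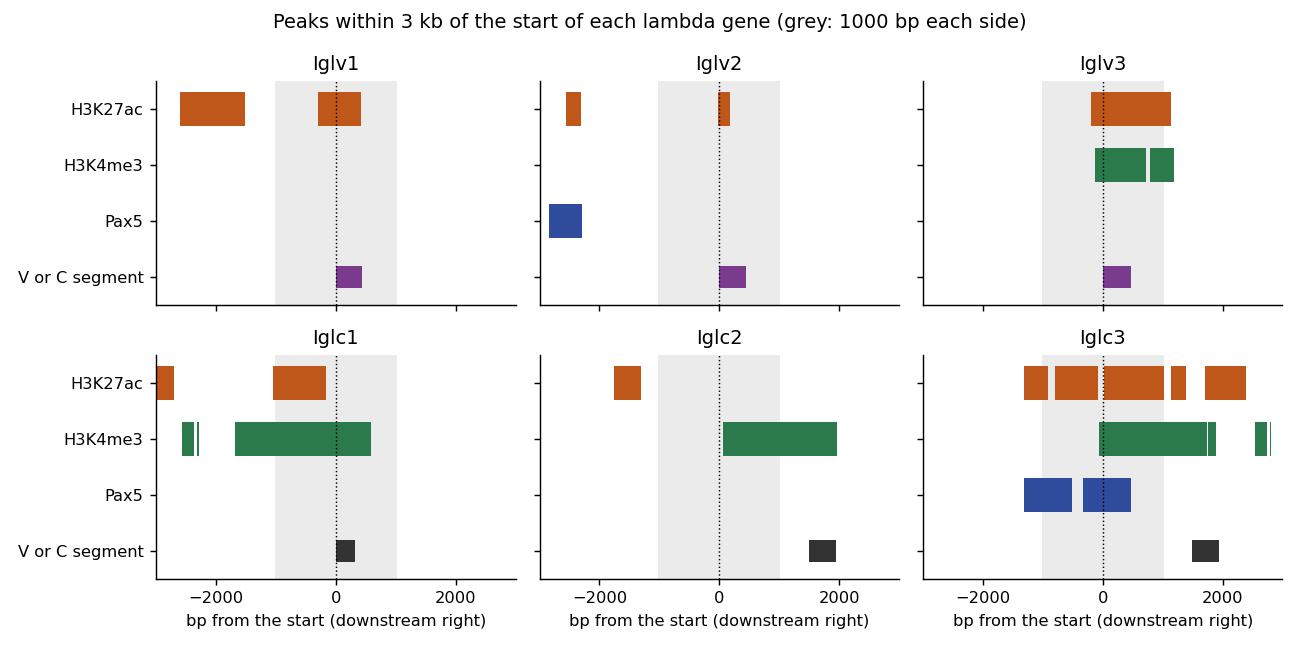
Peaks of the 3 lists within 3 kb of the start of each λ gene, with the distance from the start in bp on the x axis (downstream to the right), 1 track for each list and the V or C exon below, and the 1000 bp on each side in grey. H3K27ac is over the starts of the 3 V genes, H3K4me3 at Iglv3 and the 3 C genes, and Pax5 at Iglc3.

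Among the V genes, Iglv3 differed from Iglv1 and Iglv2 in H3K4me3. An H3K27ac peak of 1328 bp with a score of 15 (chr16:19240638-19241965) covered all 469 bases of Iglv3. H3K4me3 regions of 850 bp (chr16:19241053-19241902) and 400 bp (chr16:19240578-19240977) lay over the gene and its 3′ side. No matching sequence was found for these peaks in the other part of the locus, and all of the sequence under its H3K27ac peak was found once in the genome in 36-base words. The nearest Pax5 peak was 15.8 kb downstream of its start and had a score of 178.

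Iglv1 had an H3K27ac peak of 728 bp with a score of 8.95 (chr16:19085131-19085858), which covered 423 of its 444 bases and the octamer promoter. Iglv2 had one of 203 bp with a score of 4.60 (chr16:19260760-19260962), equal to the lowest in the locus, which covered 178 of 444 bases and ended before the octamer. The nearest H3K4me3 regions were 18.2 kb from the start of Iglv1 and 19 kb from that of Iglv2. Both genes also had an H3K27ac peak upstream, 1.51 kb from Iglv1 with a score of 8.95 and 2.32 kb from Iglv2 with a score of 5.26, in sequences of 92.6% identity. A Pax5 peak (chr16:19263228-19263774, score 90.9) overlapped the upstream peak of Iglv2. The matching sequence upstream of Iglv1, with 96.4% identity, had no Pax5 peak. The Pax5 peak at Iglv2 had the lowest Pax5 score in the locus and rank 15086 of 15445. A place just below the caller's threshold would not be listed, so a difference between the 2 genes cannot be read from this. The scores were lower at Iglv2 than at Iglv1 at both places, and the error of these scores is unknown.

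Among the C genes, Iglc3 was the member with all 3 profiles at its start. H3K4me3 covered Iglj3 and most of Iglc3 in regions of 1800 bp (chr16:19065528-19067327) and 125 bp, and 5 H3K27ac peaks followed each other from upstream of Iglj3 to the C exon. Their scores were 7.40, 8.95, 18.9, 10.6 and 9.74, and the highest was that of the peak over Iglj3 (chr16:19066238-19067240). A Pax5 peak with a score of 124 (chr16:19066800-19067602) covered Iglj3, and another with a score of 375 (chr16:19067773-19068585) lay 602 bp upstream of it and overlapped the 2 H3K27ac peaks upstream of Iglj3. The latter Pax5 peak is partly in repeated sequence, with 59.8% of its 36-base words at up to 3 places in the genome. Iglj3 was the only λ segment under a Pax5 peak.

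Iglc1 was covered by the widest H3K4me3 region of the locus, 2275 bp from upstream of Iglj1 to past the C exon (chr16:19061578-19063852). One H3K27ac peak with a score of 8.16 (chr16:19062336-19063206) lay between Iglj1 and Iglc1 without reaching either, at 112 bp from Iglj1 and 174 bp from Iglc1. The nearest Pax5 peak was 4.64 kb upstream and was that over Iglj3.

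Iglc2 had H3K4me3 and neither of the other profiles. The region of 1900 bp (chr16:19198478-19200377) covered all of Iglj2 and Iglc2, while the nearest H3K27ac peak was 1.42 kb from Iglj2 and the nearest Pax5 peak 20.3 kb from it. Of the 36-base words under this H3K4me3 region 93.4% occurred once in the genome. The sequences under the H3K27ac peaks over Iglj3, between Iglj3 and Iglc3 and over Iglc3 aligned to J2-C2 with 83.1% to 90.4% identity. No H3K27ac peak was listed at the aligned places. The 2 H3K27ac peaks upstream of Iglj3, with 61.9% and 64.8% of their 36-base words at up to 3 places, were not compared. Across the J4-C4 pair there was no peak of any list, the nearest being the H3K4me3 region of J2-C2 at 1.85 kb from Iglj4. The H3K4me3 region of J1-C1 aligned in full to J4-C4, with 83.2% identity.

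**Figure D3:**
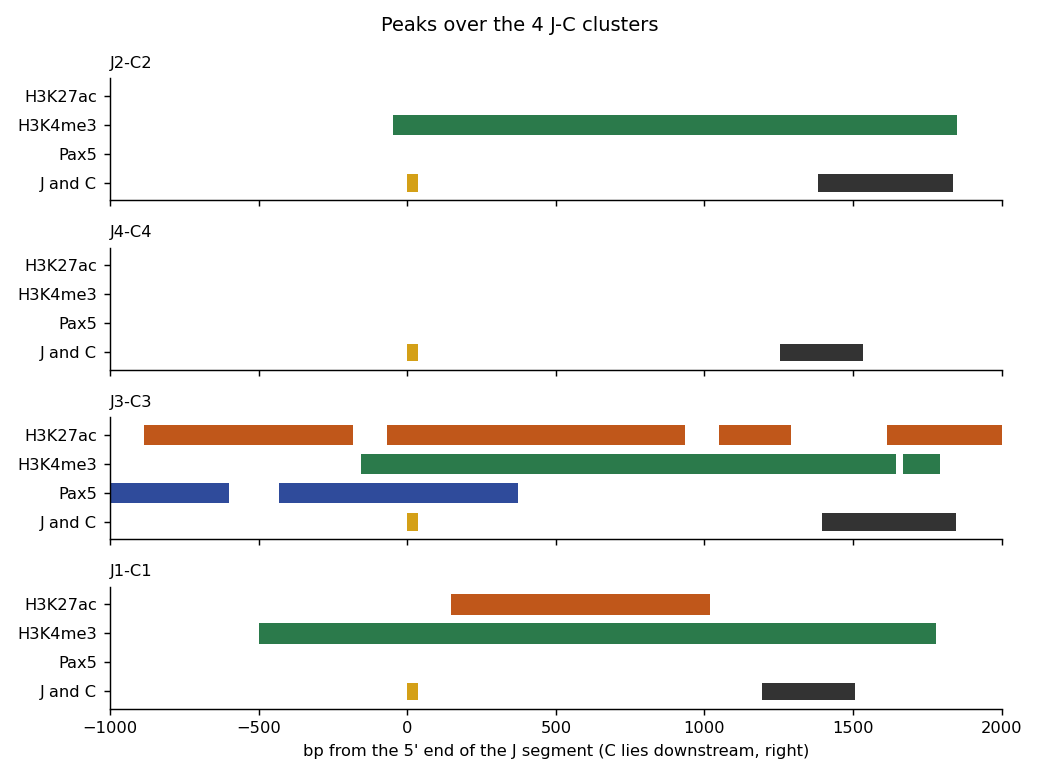
Peaks over the 4 J-C clusters of the λ locus, with the distance from the 5′ end of the J segment in bp on the x axis, 1 track for each list and the J (gold) and C (black) segments below. H3K4me3 runs from J to C in J2-C2, J3-C3 and J1-C1, H3K27ac is present in J3-C3 and J1-C1, Pax5 in J3-C3, and J4-C4 has no peak.

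Overlap of H3K4me3 with H3K27ac was found for 5 of the 8 H3K4me3 regions, beside 74.2% of all 23237 regions. The 3 without were the region of J2-C2 and 2 short regions of 25 and 200 bp between Iglc3 and Iglj1.

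The strongest H3K27ac peaks were not at the genes. The highest score in the locus, 35.0, belonged to a peak 41.0 kb downstream of Iglc4 (chr16:19152909-19154102), and 7252 peaks of the list scored higher. Peaks with scores of 29.4 (chr16:19177485-19179393) and 25.0 (chr16:19179620-19180843) lay on either side of the composite motif downstream of Iglc4, which fell in the gap between them. Downstream of Iglc1 the highest score was 27.2, for a peak 8.81 kb from Iglc1 (chr16:19051249-19053044), with a peak of score 15.9 beside it. No matching sequence was found for that pair in the other part of the locus. At the composite motif downstream of Iglc1 a peak with a score of 13.5 (chr16:19026465-19028439) covered the motif, and one of 14.1 (chr16:19023855-19025294) followed. That motif was sought only within H3K27ac peaks, so its cover by one is given by the choice and is no result.

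The Pax5 peak of highest score lay downstream of Iglc4. The composite motif there was chosen within this peak, so their meeting is given by the choice and is no result. That peak (chr16:19178857-19180016, 1160 bp) had a score of 1240.0 and rank 385 of 15445, within the top 2.49% of the list, and overlapped the H3K27ac peaks on both sides of the motif. The next in score was 480, for a peak (chr16:19152450-19153313) that overlapped the H3K27ac peak with a score of 35.0. The others had scores from 90.9 to 375. The Pax5 peak downstream of Iglc1 (chr16:19052799-19053535, score 239) overlapped the H3K27ac peaks with scores of 27.2 and 15.9.

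The blocks downstream of Iglc4 and Iglc1 are copies of each other that are not identical, so matching sequences could be compared. The second block reaches past the 50 kb flank and was followed to 100 kb. H3K27ac peaks stood at some matching places in both, but not at all of them. Downstream of Iglc4, peaks with scores of 6.66 (chr16:19148142-19148394) and 10.6 (chr16:19149160-19149483) had a matching sequence without an H3K27ac peak. So did a peak with a score of 8.14 (chr16:19005426-19005696) downstream of Iglc1. The peaks on either side of the composite motif downstream of Iglc4, with scores of 29.4 and 25.0, both aligned in part to the single peak over the motif downstream of Iglc1, with a score of 13.5. The identity was 85.9% over 58.6% of the first and 84.6% over 65.7% of the second. The peak with a score of 35.0 matched one with a score of 20.8 (chr16:19007572-19008950), with 91.8% identity.

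Pax5 too was alike at some matching places and not at others. The peak with a score of 480 matched one with a score of 482 (chr16:19007272-19007899), at 91.3% identity. A peak with a score of 232 (chr16:19146235-19147308) matched one with a score of 356 (chr16:19002699-19003724), at 92.4% identity. For the peak with a score of 1240.0 the matching sequence (chr16:19026728-19027890, 86.8% identity over 100% of the peak) had no Pax5 peak, although an H3K27ac peak was there. All the 36-base words of both copies occurred at up to 3 places in the genome. The read length and the placing of reads with several positions are not given for this list, and their part in the difference was not tested. The motifs printed above differ between the copies only within the 2 free bases.

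**Figure D4:**
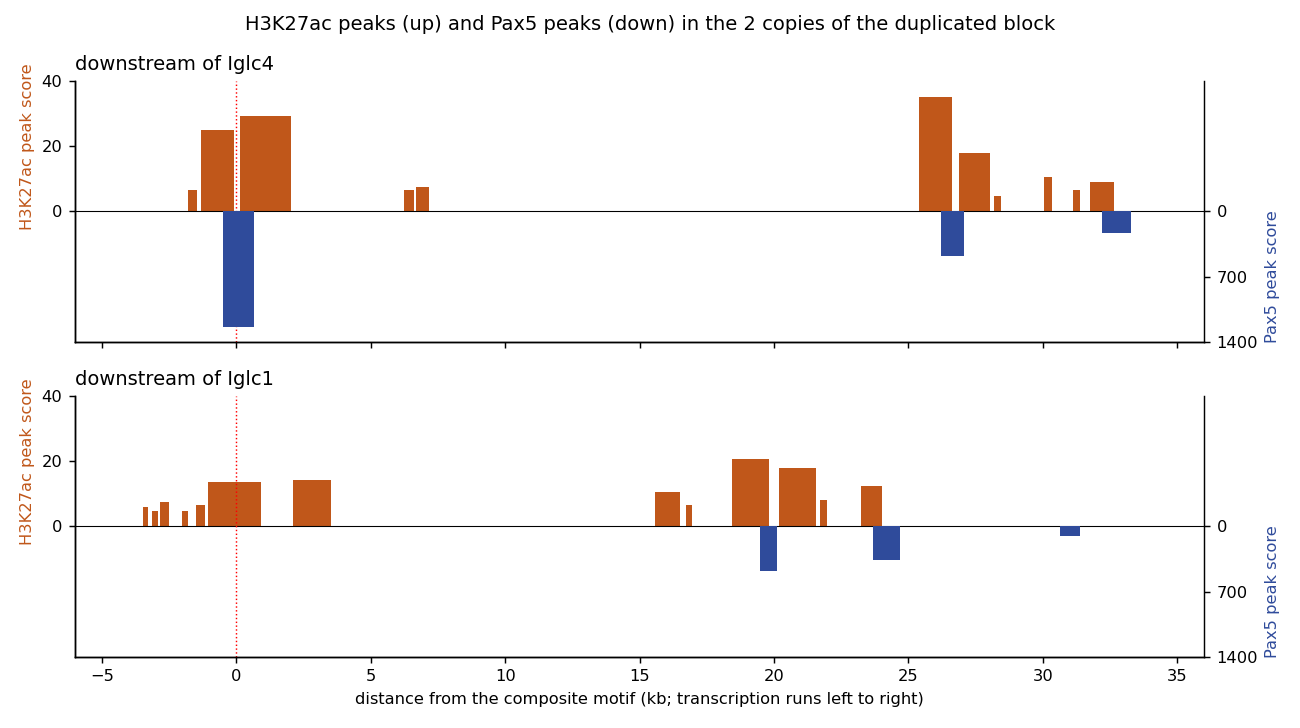
H3K27ac peaks (orange, upward, left axis) and Pax5 peaks (blue, downward, right axis) by peak score in the 2 copies of the block downstream of Iglc4 and of Iglc1, with the distance from the composite motif in kb on the x axis. The Pax5 peak with a score of 1240.0, within which the motif downstream of Iglc4 was chosen, has no counterpart downstream of Iglc1. The pairs with scores of 480 and 482 and of 232 and 356 are present in both copies.

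Over all peaks within 100 kb of the members with at least 70% of their 36-base words at up to 3 places, a matching sequence in the other part of the locus was found for 24 of 44 H3K27ac peaks, and 17 of these 24 had an H3K27ac peak there. For Pax5 a match was found for 7 of 9 peaks, and 4 had a Pax5 peak there. For H3K4me3 the numbers were 5 of 7 regions and 3. The pairs without H3K4me3 at the match all had J4-C4 or the sequence between Iglc2 and Iglj4 as the match. Each matched pair with peaks at both places enters these counts from both sides.

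Pax5 peaks in the λ locus overlapped H3K27ac in 7 of 12 cases, beside 79.3% of all 15445 Pax5 peaks. The 5 without H3K27ac had scores of 99.5 to 197. In 3 of them 14.2%, 13.3% and 19% of the 36-base words were at up to 3 places in the genome, and in the other 2 the share was 63.7% and 67.3%. Of 6 Pax5 peaks with under 70% of their 36-base words at up to 3 places (13.3% to 67.3%), 1 overlapped H3K27ac, and of the other 6 (84.8% to 100%) all 6 did. The limit of 70% was set after the values were seen. In the locus as a whole 69.7% of the 36-base words occurred once in the genome and 74.6% at up to 3 places.

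**Figure D5:**
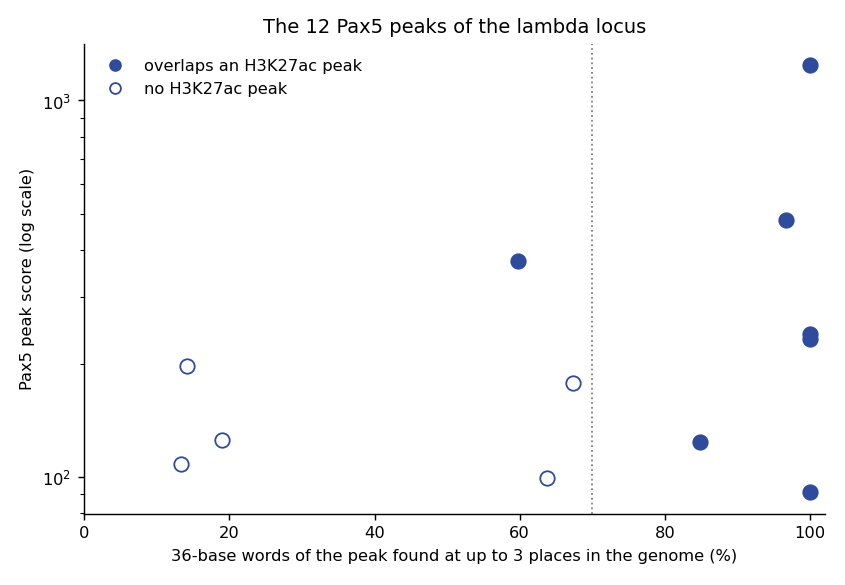
The 12 Pax5 peaks of the λ locus by the percent of their 36-base words at up to 3 places in the genome (x axis) and their peak score (y axis, log scale), filled where an H3K27ac peak overlaps and open where none does. The open points are the 5 peaks with scores from 99.5 to 197, all left of the dotted line at 70%.

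Sequence motifs were counted on both strands in the 1000 bp at the midpoint of each peak. The octamer was found at 8 of the 36 H3K27ac peaks of the locus (22.2%), beside 4.88% of all H3K27ac peaks, and at 0 of the 12 Pax5 peaks, beside 5.21%. Neighbouring windows can share a match, and those of the H3K27ac peaks over Iglv1 and Iglv2 take in the promoter octamers printed above. The composite motif was found at 4 of 36 H3K27ac peaks (11.1%, beside 11.2%) and at 1 of 12 Pax5 peaks (beside 9.92%). The E box CAGNTG, which E2A binds, was at 34 of 36 (beside 93.2%) and 10 of 12 (beside 90.9%). The letters GCGTGAC, a core of Pax5 sites, were at 0 of 12 Pax5 peaks, beside 10.8% of all Pax5 peaks, and at 0 of 36 H3K27ac peaks, beside 3.42%.

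The κ J and C genes and 4 heavy chain constant genes, with 50 kb each side, were taken as most like the λ locus. The 4 were Ighm, Ighg1, Ighg and Ighg2c. Neither region was drawn from V genes, while the λ locus was drawn from V and C genes and includes the 110 kb between Iglc4 and Iglv1. The shares and rates are therefore of unlike parts of the 3 loci. H3K27ac covered 21% of the κ region (104 kb) and 12.8% of the heavy chain region (237 kb), both above the 8.06% of λ. The highest H3K27ac scores there were 84.8 and 201, beside 35.0 in λ. Pax5 covered 3.92% and 5.03%, beside 3.04% of λ, with highest scores of 1107 and 1099 beside 1240.0. H3K4me3 covered 6.86% and 3.50%, beside 2.53% of λ. In peaks per 100 kb the κ, heavy chain and λ regions had 15.4, 14.7 and 12 for H3K27ac and 4.80, 4.21 and 4.01 for Pax5. H3K4me3 regions numbered 9.60, 0.421 and 2.67 per 100 kb, the heavy chain value being that of 1 wide region. With 1 library these differences have no error.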

How the data were processed

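Pre-B ChIP-seq libraries for H3K27ac, H3K4me3 and Pax5 were used, 1 each, from the peak lists the authors deposited. Per the labels, the submitters' processing notes name Bowtie 0.12.9, MACS 1.4.2 and mm9, while the paper's methods describe a later Bowtie, keep reads with up to 3 best positions and give no MACS settings for these lists. The H3K27ac and Pax5 lists as deposited give a score for each peak. For H3K4me3 the authors deposited 25 bp bins without any score or other value, and bins that touch were joined. Read length is not given in the sources used here. Positions are those of NCBIM37 (mm9), with GENCODE M1. No peak ended past a chromosome.

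A peak counted as at a start if it came within 1000 bp by at least 1 bp. Since GENCODE M1 also calls T cell receptor genes IG_V_gene, Vκ and VH genes were those within the arrays bounded by named Igkv and Ighv genes. Segments were placed, and matching sequences found, with blastn 2.17.0 (word size 11, bit score of at least 80, at least 50% of the peak aligned, shifts of at most 1000 bp). Exact words of 36 bases were counted genome-wide on both strands, and the counter was tested on simulated data. The recombination signal of 1 J segment is not reported here. Python 3.11.15, numpy 2.4.6, Biopython 1.88 and matplotlib 3.10.9 were used.

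The text names the 6 members, the λ J and C segments, all other genes of the locus, the heavy chain constant genes compared and the fixed markers. The members and lists were chosen with earlier results of these data known, and the matching sequences, the limit of 70% and the landmark motif were chosen after the peaks were seen. Alternatives were the flank, the window at the start, the higher-scoring 50% of a list, the joining of bins and the overlap.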

Additional observations from a re-analysis of the deposited data

How the results depend on the processing

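No paired analysis was possible because there is 1 library a list. Of 27 alternatives 23 kept the count or share within 1.5 times its value and 4 did not, 3 of them numbers of peaks or regions. With the higher-scoring 50% of each list the locus held 18 H3K27ac and 5 Pax5 peaks. With H3K4me3 bins up to 100 bp apart joined it held 5 regions. Within 2500 bp of the start 2 members had a Pax5 peak. Without the flank the covered share was 8.41% for H3K27ac, 3.67% for H3K4me3 and 3.92% for Pax5, and with 100 kb on each side it was 8.28%, 1.90% and 3.12%. The number of members with H3K27ac at their start was 5 or 6 and with H3K4me3 3 or 4, the sixth with H3K27ac being Iglc2 within 2500 bp. An alternative chosen after seeing the data, Pax5 peaks with at least 70% of 36-base words at up to 3 places, left 6 that overlap H3K27ac. Without replicates or read counts, a missing peak may be a place just below the caller's threshold. Peaks in repeated sequence depend on how reads with several positions were placed, and this was not tested.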

Other observations

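The flanks of the λ locus differed in their peaks. From 50 to 100 kb downstream of Iglc1 there were 12 H3K27ac and 4 Pax5 peaks, with scores of up to 20.8 and 482, while from 50 to 100 kb upstream of Iglv2 there were 0 peaks of any list. A group of 6 of these H3K27ac peaks (chr16:19003389-19011813) belongs to the copied block downstream of Iglc1 or follows it, and the last of them ends just short of the 50 kb limit.

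The other genes annotated in the locus are the protein-coding gene Gm10088 (chr16:19028325-19028747), the odorant receptor gene Olfr164 (chr16:19285836-19286930) and the small nucleolar RNA SNORA17 (chr16:19307792-19307917). Gm10088 had H3K27ac within 1000 bp of its start, in the group of peaks at the composite motif downstream of Iglc1, and no H3K4me3 or Pax5. Olfr164 and SNORA17 had no peak of any list.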
